A study of Homo sapiens with 4 samples.

Results

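The 10 genes described here encode the enzymes that write, copy, oxidise and excise DNA methylation: TET1, TET2, TET3, TDG, MBD4, APEX1, DNMT1, UHRF1, DNMT3A and DNMT3B. They were taken by symbol from tables of 26506 gene symbols, and all 10 were found. RNA-seq had been carried out on HeyC2 and SKOV3, both established ovarian cancer cell lines, with 4 libraries in all. In each line, cells that received 3 μg of empty plasmid gave the control library, and cells given 3 μg of pCMV6/TET1 gave the library labelled as TET1 overexpressed, after lipofectamine 2000 transfection of both. Both kinds of cells were then kept in 400 μg/ml Geneticin, and pCMV6 drives its insert from a viral CMV promoter rather than from the gene's own promoter. Whether the selected cells were a pool or 1 clone was not stated. Each group is 1 library, so the comparison within each line has no replicate check and no test was made. The intervals given below cover the counting error of the estimated fragments only, and no p-value is given.

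As background, DNMT3A and DNMT3B place methyl groups on unmethylated CpG sites, while DNMT1 copies methylation onto the new strand after replication. UHRF1 recognises hemimethylated CpG sites and brings DNMT1 to them. The TET proteins oxidise 5-methylcytosine, first to 5-hydroxymethylcytosine and then to 5-formylcytosine and 5-carboxylcytosine. TDG, a DNA glycosylase, cuts out these last bases as well as T mispaired with G, MBD4 is another glycosylase for such mismatches at methylated sites, and APEX1 nicks the abasic site that the glycosylases leave. Base excision repair then puts back an unmodified cytosine. Altered methylation at promoters is a common feature of ovarian cancer cells.

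Values are FPKM, fragments counted per length of transcript and per depth of library, so levels can be compared between genes. In the deposited tables the values of each TET1 library had been multiplied by a constant that makes GAPDH equal to the control, and this constant, 3.23 in HeyC2 and 1.35 in SKOV3, was divided out. GAPDH itself, a glycolytic enzyme, then read 5417 FPKM in control and 1675 FPKM in TET1 cells of HeyC2, and 2248 and 1671 FPKM in the SKOV3 pair. All FPKM below are without this scaling. A relative log2 change is log2((TET1 + 0.1)/(control + 0.1)) minus the median of the same over all genes with a mean of at least 1 FPKM, and a gene is counted as higher or lower where it lay at least 1.5-fold from that median. The all-gene median itself was 0.07 in HeyC2 and 0.21 in SKOV3 on the log2 scale. The depth was estimated at 6714668 to 7317687 fragments per library. Of the 12 markers listed for an epithelial ovarian line, 7 to 10 were at 1 FPKM or more in each library. PAX8 was among them at 74.6 to 195 FPKM, but so were the mesenchymal genes VIM and CDH2. The epithelial genes CDH1, at 0 FPKM in control and TET1, and EPCAM, at 0.09 and 0.38 FPKM, were near the floor in HeyC2. In SKOV3, CDH1 was at 2.24 and 6.3 FPKM and EPCAM at 15.4 and 16.1 FPKM. WT1 and MUC16, a pair often used for serous ovarian tumours, were under 1 FPKM in all 4. The summed level of 12 markers of other cell types was 1.4 to 96.3 FPKM, with the T cell marker CD3E at 0 in every library. The largest part in HeyC2 was CDH5, an endothelial cadherin, at 18.9 FPKM in the control and 94.6 FPKM in the TET1 library. The endothelial gene PECAM1 was at 0.09 and 0.0309 FPKM in the same pair. In SKOV3 the sum was 1.4 FPKM in the control and 6.52 FPKM in the TET1 library. The fibroblast marker LUM was at 0.51 and 4.32 FPKM in that pair, and the liver marker ALB at 0 and 1.23 FPKM. The SKOV3 TET1 library kept ERBB2, a gene that SKOV3 carries in amplified form, at 1464 FPKM against 1282 in the control. Its keratins differed in both directions, with KRT7 at 22.0 FPKM against 1537 and KRT19 at 0.461 against 255, but KRT8 at 775 FPKM against 560 and KRT18 at 255 against 193. In HeyC2 the TET1 library had KRT7 at 1125 FPKM against 290 and VIM, the mesenchymal filament vimentin, at 2927 against 7496. The part of these differences in the results below was not tested.

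Across the 4 libraries the enzymes kept a similar order of level at the top and the bottom. APEX1 was the highest in every library, with 99.1 FPKM (control) and 89.3 FPKM (TET1) in HeyC2, and 113 and 94.1 FPKM in SKOV3. DNMT1 came next in 3 of the libraries, and in SKOV3 TET1 DNMT3B stood between them. TET2 and TET1 took the last 2 places throughout, and TET1 was the lowest also in the libraries that received the TET1 plasmid, although in SKOV3 TET1 its interval overlapped that of TET2. In the HeyC2 control the intervals of MBD4 and DNMT3A overlapped, as did those of DNMT3A and DNMT3B, of DNMT3B and TDG and of TET3 and TET2, so their order is not resolved at this depth. In the SKOV3 control the same held for TDG with MBD4 and for DNMT3A with TET2. In HeyC2 TET1 it held for DNMT3A with TDG and for TET3 with DNMT3B, and in SKOV3 TET1 for MBD4 with both UHRF1 and TDG.

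**Figure D1:**
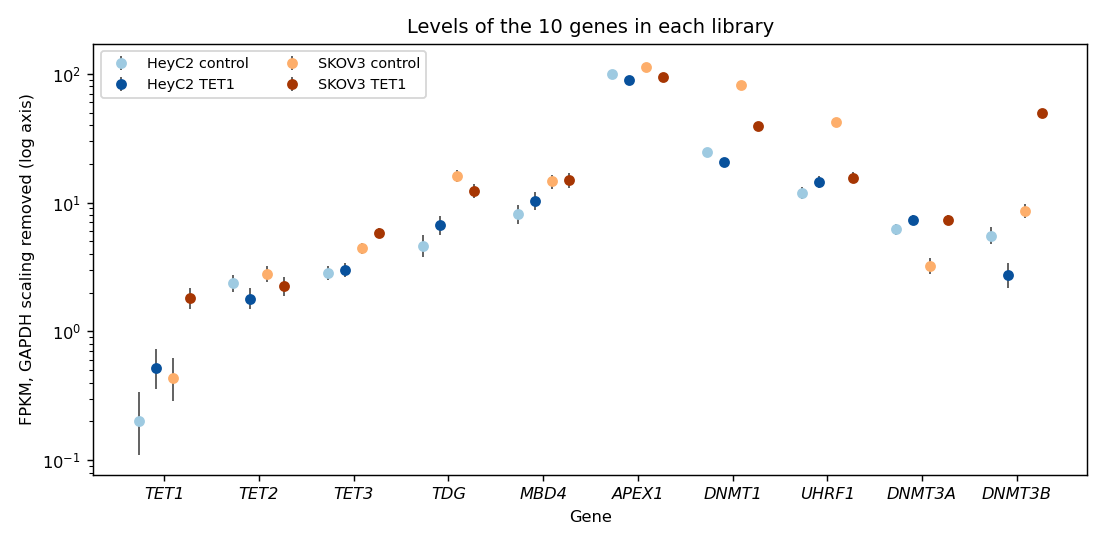
Level of each of the 10 genes in the 4 libraries, in FPKM with the scaling to GAPDH removed, on a log axis. Points are single libraries and bars are 95% counting intervals from estimated fragments, drawn where they reach past the point. APEX1 stood highest and TET1 lowest in each library, and the DNMT3B point of SKOV3 TET1, at 49.4 FPKM, lay far above the other 3.

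The targeted gene was checked first. TET1 (chromosome 10, 70320094 to 70454244 on GRCh37, a 9612-base canonical transcript in 12 exons) was at 0.2 FPKM in the HeyC2 control (95% interval 0.109 to 0.336) and at 0.519 FPKM in HeyC2 TET1 (0.358 to 0.729). In SKOV3 it was at 0.43 FPKM in the control (0.288 to 0.618) and at 1.8 FPKM in the TET1 library (1.48 to 2.16). The plasmid library was therefore the higher in each line, and in each line the intervals did not overlap. The fragments behind these values were few, with about 14 and 33 in HeyC2 and about 29 and 114 in SKOV3. The ratio of TET1 library to control was 2.6 in HeyC2 (1.35 to 5.25) and 4.18 in SKOV3 (2.76 to 6.52). Relative to the all-gene median this was a log2 change of 0.98 in HeyC2, where TET1 had a mean below 1 FPKM and so did not pass the filter, and of 1.63 in SKOV3. In HeyC2, 6.64% of all genes tested lay higher than TET1, and in SKOV3 7.55% did. With a pseudocount of 1 in place of 0.1, the relative log2 change of TET1 was smaller, at 0.28 in HeyC2 and 0.78 in SKOV3. FPKM per gene does not separate transcripts of the plasmid from those of the cell's own TET1.

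The other TET genes lay less than 1.5-fold from the median in both lines. TET2 (chromosome 4, 106067032 to 106200973) read 2.36 FPKM in HeyC2 control cells and 1.79 FPKM in HeyC2 TET1 cells, against 2.78 and 2.23 FPKM for SKOV3. It was lower in the TET1 library of both lines, with relative log2 changes of -0.45 (-0.82 to -0.11) and -0.52 (-0.86 to -0.21). TET3 (chromosome 2, 74212037 to 74335303), the highest of the family in all 4 libraries, read 2.83, 3.01, 4.4 and 5.81 FPKM in the same order. Its relative log2 changes were 0.02 (-0.24 to 0.29) in HeyC2 and 0.18 (-0.01 to 0.39) in SKOV3, intervals that include 0.

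Seen as shares of the summed TET level, TET1 went from 3.71% to 9.76% in HeyC2 and from 5.65% to 18.3% in SKOV3. The sum itself was 5.39 and 5.32 FPKM in HeyC2 and 7.61 and 9.84 FPKM in SKOV3. TET3 supplied 52.5% to 59.1% of the sum in every library, so it was TET2 whose share was smaller where that of TET1 was larger, at 43.8% and 33.6% in HeyC2 and 36.5% and 22.7% in SKOV3. In HeyC2 TET1 the level of TET1 was below that of TET2 and TET3 with intervals that did not overlap. In SKOV3 TET1 it was below TET3, and its interval of 1.48 to 2.16 FPKM overlapped that of TET2, 1.88 to 2.63 FPKM.

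Among the 10 enzymes, as among all genes, more lay far from the median in SKOV3 than in HeyC2. In HeyC2, 9 genes passed the filter, of which 1 was lower, DNMT3B, and 0 were higher, beside 11.5% of all 11894 genes tested that were lower and 15.3% that were higher (26.8% in either direction). In SKOV3 all 10 passed, with 3 higher (TET1, DNMT3A and DNMT3B) and 3 lower (DNMT1, UHRF1 and TDG), beside 24.4% of 13013 genes higher and 20.3% lower (44.7% in either direction). The median relative log2 change of the enzymes was 0.02 in HeyC2 and -0.33 in SKOV3, where that of all genes is 0 by construction. Of the 10, 4 (DNMT3B, TDG, UHRF1 and MBD4) lay on opposite sides of the median in the 2 lines. So did 44.7% of the 11134 genes with a mean of 1 FPKM or more in each line. The intervals of MBD4 include 0 in both lines, and that of UHRF1 includes 0 in HeyC2.

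**Figure D2:**
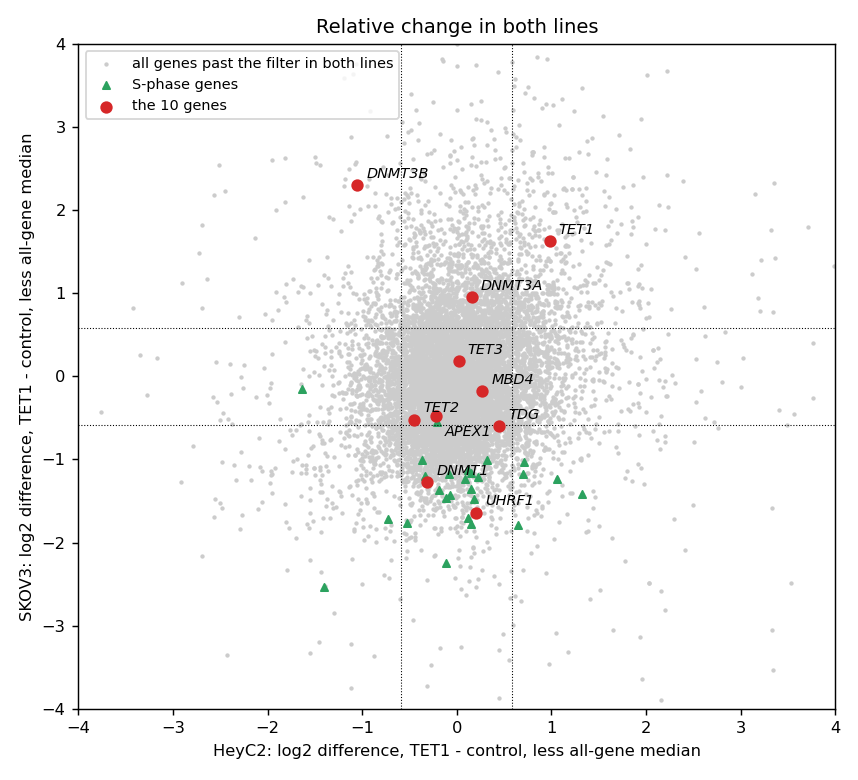
Relative log2 change in HeyC2 (horizontal axis) and SKOV3 (vertical axis), for the 10 enzyme genes (red, named), the S-phase genes described below (green triangles) and every gene that passed the filter in each line (grey), with dotted lines at 1.5-fold and with genes beyond 4 on an axis not drawn. DNMT3B lay at -1.05 and 2.3, UHRF1 at 0.2 and -1.64, and DNMT1 at -0.31 and -1.27, while TET2, TET3, MBD4 and APEX1 lay inside the dotted lines in both cell lines.

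Of the de novo methyltransferases, DNMT3B differed more between the lines than any other of the enzymes. DNMT3B (chromosome 20, 31350191 to 31397165, a 4336-base canonical transcript in 23 exons) was at 5.52 FPKM in control HeyC2 and 2.74 FPKM in TET1 HeyC2, but at 8.59 FPKM in control SKOV3 and 49.4 FPKM in TET1 SKOV3. It was the lower of the pair in HeyC2 TET1 and the higher in SKOV3 TET1, and its intervals overlapped in neither line. The estimated fragments were 169 and 77 in HeyC2 and 257 and 1382 in SKOV3. The ratio to control was 0.496 in HeyC2 (0.374 to 0.653) and 5.76 in SKOV3 (5.04 to 6.6), and the relative log2 changes were -1.05 (-1.49 to -0.68) and 2.3 (2.12 to 2.51).

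Set among all genes, 3.75% of those tested in HeyC2 lay lower than DNMT3B and 3.78% of those tested in SKOV3 lay higher. The gap between the lines was 3.35 on the log2 scale, and 1.26% of genes expressed in both lines, by the same filter, had a larger one. Of the 35 other genes tested within 2 Mb of DNMT3B in SKOV3, 7 were higher and 8 lower by the same 1.5-fold, with a median of -0.04. Of all genes in SKOV3, 24.4% were higher and 20.3% lower. In HeyC2, 4 of 30 such neighbours were higher and 2 lower, with a median of 0.28, beside 15.3% and 11.5% of all genes. The part of the region in the values of DNMT3B was not tested.

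DNMT3A (chromosome 2, 25450724 to 25565459), which is made from a different gene and prefers partly different sites, was at 6.21 and 7.29 FPKM in the HeyC2 libraries and at 3.22 and 7.35 FPKM in those of SKOV3. The SKOV3 control stood apart as the lowest of the 4, and the other 3 were within 6.21 to 7.35 FPKM. The relative log2 change was 0.16 (-0.03 to 0.36) in HeyC2 and 0.95 (0.74 to 1.22) in SKOV3. The level of DNMT3B relative to DNMT3A was 0.889 (control) and 0.376 (TET1) in HeyC2, but 2.67 and 6.73 in SKOV3.

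DNMT1, the maintenance methyltransferase (chromosome 19, 10244018 to 10341962, minus strand), read 24.5 and 20.6 FPKM in HeyC2 (control, then TET1) and 81.5 and 39.2 FPKM in SKOV3. It was lower in the TET1 library of each line, by less in HeyC2 than in SKOV3. The relative log2 change was -0.31 (-0.46 to -0.17) in HeyC2 and -1.27 (-1.37 to -1.18) in SKOV3, where the ratio was 0.48 (0.45 to 0.513).

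UHRF1, its partner at replicated DNA (chromosome 19, 4903092 to 4962165, plus strand), read 11.9 and 14.4 FPKM for HeyC2 (control, then TET1) and 42.1 and 15.6 FPKM for SKOV3. The SKOV3 control was the high library, and SKOV3 TET1 lay near the HeyC2 libraries. The level was 2.7-fold lower in SKOV3 TET1 than in its control (2.4 to 3.03), a relative log2 change of -1.64 (-1.81 to -1.48), and 2.34% of all genes tested lay lower. In HeyC2 the value was 0.2 (-0.01 to 0.43). UHRF1 and DNMT1 lie on the same chromosome arm, and of the genes tested within 2 Mb in SKOV3, 27 of 70 around UHRF1 were lower and 15 higher, and 30 of 81 around DNMT1 were lower and 15 higher, with medians of -0.39 and -0.33, beside the 20.3% of all genes lower and 24.4% higher.

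These opposite movements changed the makeup of the DNMT transcripts in SKOV3 but hardly their sum. Summed DNMT1, DNMT3A and DNMT3B gave 93.3 and 96.0 FPKM in the SKOV3 pair (control, then TET1), and 36.2 and 30.6 FPKM in the HeyC2 pair. In SKOV3 the share of DNMT1 was 87.3% in the control and 40.8% in the TET1 library, and that of DNMT3B was 9.2% and 51.5%. DNMT3B was thus the most abundant DNMT transcript in SKOV3 TET1, as it was in no other library. In HeyC2 the share of DNMT1 was 67.6% and 67.3%, that of DNMT3A 17.1% and 23.8%, and that of DNMT3B 15.2% and 8.94%.

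**Figure D3:**
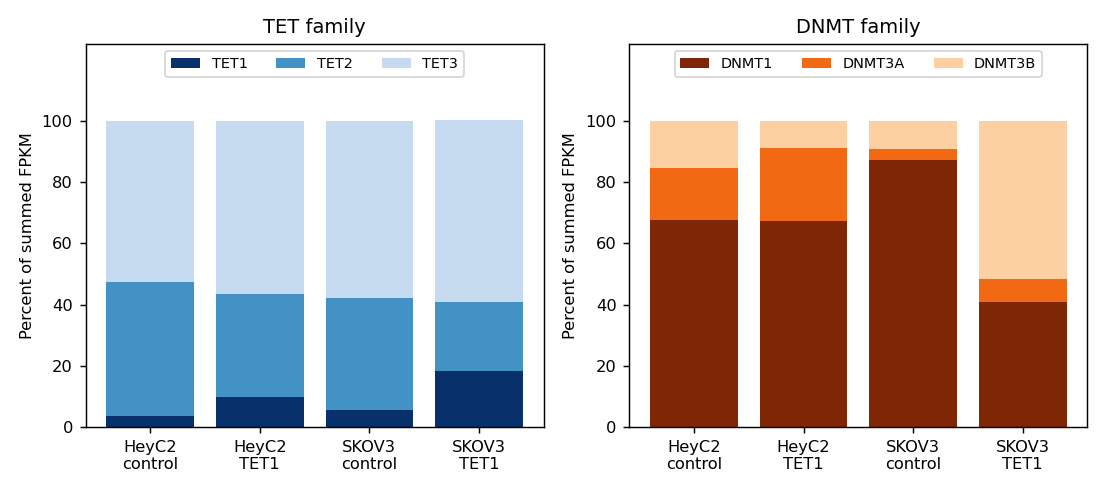
Share of each gene in the summed FPKM of the TET genes (left) and of the DNMT genes (right), in percent, for the 4 libraries. DNMT3B took 51.5% of the DNMT sum in SKOV3 TET1 and 9.2% in its control, and TET1 took 18.3% of the TET sum in SKOV3 TET1.

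Expression of DNMT1 and UHRF1 is known to follow the cell cycle, so both were set beside 26 genes of S phase, the part of the cycle in which DNA is copied. The summed level of these 26 genes came to 370 FPKM for control and 407 FPKM for TET1 HeyC2 cells, and to 1682 and 732 FPKM for SKOV3 cells. In SKOV3, 24 of 26 were lower and 0 higher, beside 20.3% of all genes lower and 24.4% higher. All 26 were below the all-gene median, and the median of the list was -1.3. In HeyC2, of 23 that passed the filter 5 were higher and 3 lower, with a median of 0.12. There, 15.3% of all genes were higher and 11.5% lower. In SKOV3, DNMT1 and UHRF1 lay within the range of the S-phase list, -2.53 to -0.15. This range is wide and also held TDG (-0.6), TET2 (-0.52), APEX1 (-0.48) and MBD4 (-0.18). TET1, TET3, DNMT3A and DNMT3B lay above it, DNMT3B at 2.3. The share of all genes within it is not given. In HeyC2 the list ran from -1.64 to 1.32, a range that held DNMT3B, at -1.05, as well. There DNMT1, at -0.31, lay below the all-gene median and the list's median above it. In bulk RNA, fewer cells in S phase and less of these RNAs per cell cannot be told apart, and the part of this list in the values of DNMT1 and UHRF1 was not tested.

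Within the list, RRM2, a subunit of the enzyme that makes deoxynucleotides, was lower in the TET1 library of both lines, at 15.0 and 5.9 FPKM in HeyC2 and at 116 and 23.3 FPKM in SKOV3. MCM10, a replication initiation factor, was at 13.4 and 3.19 FPKM in SKOV3. In HeyC2 the cyclin gene CCNE1 was lower, with a relative log2 change of -1.64, while CCNE2 and the replication factor GINS2 were higher, with 1.06 and 1.32.

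**Figure D4:**
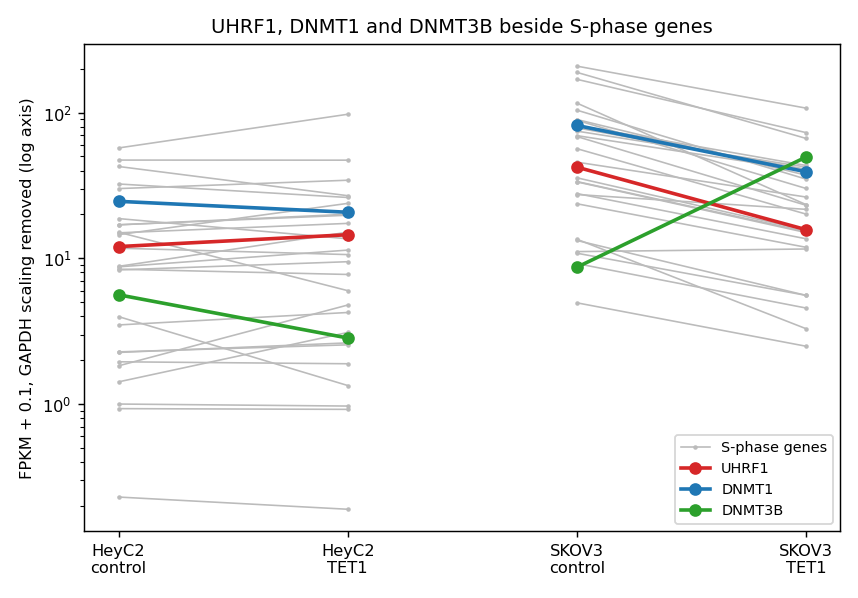
FPKM + 0.1 of UHRF1, DNMT1, DNMT3B and 26 S-phase genes in the control and TET1 library of each line, on a log axis. Each line joins the 2 libraries of 1 cell line. In SKOV3, DNMT1, UHRF1 and the grey lines other than that of CCNE1 (11.0 and 11.5 FPKM) run downward, and DNMT3B runs upward from 8.59 to 49.4 FPKM.

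The promoter sequences of the pair were read next, since genes of S phase often carry a binding element for E2F factors. The letters TTTNGCG, a core of that element, were searched on both strands in windows of 300 bases, 250 before and 50 after each RefSeq start site (GRCh38.p14). They occurred for 1691 of 27305 genes, or 6.19%, and for 14 of the 23 S-phase genes with a window. Counted by window, the share was 5.14% for all genes, 46.7% for the S-phase genes and 14.3% for the enzymes. The letters hold a CpG, and the median CpG count per window was 14, 31 and 26 for these 3 sets. A gene with more start sites also has more windows. No allowance was made for either, so these shares are not a test of enrichment. Of the 10 enzymes, UHRF1 and DNMT1 had a match and the others had none. UHRF1 has 3 start sites in the table, and a further match 160 bases before another of them is not shown. For each gene the match nearest to a start site is given in capitals, in the 100 bases that run from 90 before the start site to 10 from it, each written along the strand of its gene. In UHRF1 this match begins 18 bases before the start. In DNMT1 it begins 1 base before the start and reads as the motif on the opposite strand.
UHRF1 chr19:4909411-4909510, plus strand: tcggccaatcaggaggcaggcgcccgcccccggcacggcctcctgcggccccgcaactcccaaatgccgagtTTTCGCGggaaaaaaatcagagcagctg
DNMT1 chr19:10194944-10195043, minus strand: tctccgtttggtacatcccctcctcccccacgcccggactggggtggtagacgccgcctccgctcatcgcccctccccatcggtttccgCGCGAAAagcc
A match describes these letters only, and no binding was measured here.

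On the excision side, TDG (chromosome 12, 104359600 to 104382652) read 4.62 FPKM without and 6.66 FPKM with the TET1 plasmid in HeyC2, and likewise 16.1 and 12.3 FPKM in SKOV3. It was higher in the TET1 library of HeyC2 and lower in that of SKOV3, with both SKOV3 libraries above both HeyC2 libraries. The relative log2 change was 0.45 (0.08 to 0.84) in HeyC2 and -0.6 (-0.85 to -0.37) in SKOV3. The latter is 1.52-fold and lies just past the 1.5-fold mark, and it was under that mark with a pseudocount of 1 (-0.56), a filter at 5 FPKM (-0.49) or upper-quartile scaling (-0.4).

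MBD4 (chromosome 3, 129149790 to 129159022) read 8.13 and 10.3 FPKM in HeyC2 and 14.6 and 14.9 FPKM in SKOV3. Its relative log2 changes of 0.27 (-0.07 to 0.62) and -0.18 (-0.46 to 0.09) both have intervals that include 0. The level of TDG relative to MBD4 was 0.568 and 0.648 in the HeyC2 pair and 1.11 and 0.828 in the SKOV3 pair. APEX1 (chromosome 14, 20923350 to 20925931), the abasic site endonuclease, had relative log2 changes of -0.22 (-0.35 to -0.08) in HeyC2 and -0.48 (-0.61 to -0.35) in SKOV3, short of 1.5-fold in both. It exceeded TDG 21.4-fold and 13.4-fold in HeyC2 and 7.02-fold and 7.65-fold in SKOV3.

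The control libraries had already differed between the lines. Of the 9 enzymes that passed the filter in this comparison, 3 were higher in the SKOV3 control (TDG, DNMT1 and UHRF1) and 1 was lower (DNMT3A), beside 30.6% of 12488 genes higher and 31.0% lower (61.6% in either direction). The relative log2 difference was 1.49 (1.21 to 1.86) for TDG, 1.43 (1.35 to 1.57) for DNMT1, 1.51 (1.36 to 1.73) for UHRF1 and -1.22 (-1.47 to -0.98) for DNMT3A. DNMT3B, at 0.33 (0.08 to 0.65), and TET2, at -0.07 (-0.35 to 0.27), differed less. The 26 S-phase genes were all higher in the SKOV3 control, with a median of 2.25.

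In the TET1 libraries the gaps between the lines were narrower for some enzymes and wider for others, as over all genes. The SKOV3 level over the HeyC2 level was 3.53 for UHRF1 in the controls and 1.08 in the TET1 libraries, 3.33 and 1.9 for DNMT1, 3.49 and 1.85 for TDG and 0.519 and 1.01 for DNMT3A. For DNMT3B the ratio was 1.56 in the controls and 18.1 in the TET1 libraries. In all, 6 of the 10 enzymes had a ratio nearer to 1 in the TET1 libraries, beside 52.5% of all genes tested in both. Each ratio shares its libraries with the comparisons above.

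Genes that work with these enzymes were described in 5 further lists. Their counts stand beside shares over all genes tested of 15.3% higher and 11.5% lower in HeyC2. In SKOV3 these shares were 24.4% and 20.3%. No list was tested against them. Among 18 genes of base excision repair, the pathway that completes demethylation, 2 were higher and 2 lower in HeyC2 (median -0.23), and 1 was higher and 7 lower in SKOV3 (median -0.35). NEIL1, a glycosylase for oxidised bases, was the higher gene common to both, at 0.88 and 3.04 FPKM in HeyC2 and at 1.58 and 8.62 FPKM in SKOV3. NEIL3, a related glycosylase known for expression in dividing cells, was lower in both, at 1.94 and 0.399 FPKM and at 14.8 and 5.65 FPKM. FEN1, the flap endonuclease that also processes Okazaki fragments, had a relative log2 change of 0.65 in HeyC2 and -1.79 in SKOV3.

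Of 13 partners of the methylation machinery, 11 passed the filter, with 2 higher and 0 lower in HeyC2 (median -0.26), and 0 higher and 4 lower in SKOV3 (median -0.44). The 2 higher in HeyC2 were also the 2 lowest in SKOV3, namely HELLS, a chromatin remodeller needed for normal DNA methylation, and PCNA, the sliding clamp to which DNMT1 binds. HELLS was at 3.47 and 6.36 FPKM in HeyC2 and at 8.68 and 4.01 FPKM in SKOV3. PCNA, also a gene of the S-phase list, was at 57.1 and 97.3 FPKM and at 208 and 107 FPKM. DNMT3L, the catalytically inactive cofactor of the de novo enzymes, was listed at 0 in all 4 libraries, also in SKOV3 TET1, where DNMT3B was high.

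Of 13 regulators of TET proteins and partners in demethylation, 8 passed the filter, with 3 higher and 0 lower in HeyC2 (median 0.39) and 2 higher and 3 lower in SKOV3 (median -0.12). D2HGDH, which breaks down the TET inhibitor 2-hydroxyglutarate, was higher in both lines, at 1.09 and 0.59. IDH1, a source of the TET cosubstrate 2-oxoglutarate, was higher in SKOV3, with 27.7 and 53.2 FPKM. GADD45B, a stress gene with a reported link to demethylation, had 0.62 in HeyC2 but -0.69 in SKOV3, and the related GADD45A was lower in SKOV3, from 183 to 71.7 FPKM.

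Among 9 genes of the methyl-CpG binding families, 1 was higher and 1 lower in HeyC2 (median -0.17), and 3 were higher and 2 lower in SKOV3 (median 0.19). In HeyC2 these were the zinc-finger gene ZBTB38, at 0.83, and MBD5, at -1.53. In SKOV3, MBD6 and the zinc-finger gene ZBTB4 led the higher ones with 1.38 and 0.91, and MBD3 and MBD2, alternative subunits of the NuRD complex, were lower with -0.79 and -0.66. In the supply of methyl donor, 0 of 10 genes were higher or lower in HeyC2 (median 0.04), whereas of 11 in SKOV3 2 were higher and 1 lower (median 0.09). They included SHMT2, which feeds serine carbon into the folate pool, at 60.5 and 172 FPKM, and MTHFD1, a folate enzyme of the cytosol, at 41.7 and 19.6 FPKM.

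**Figure D5:**
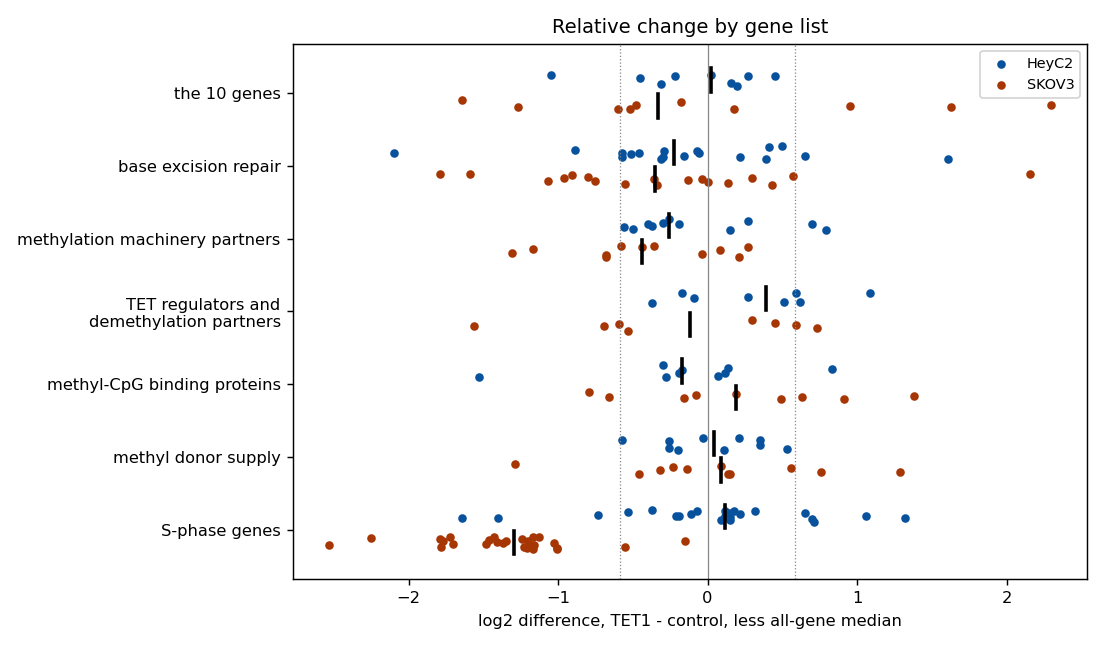
Relative log2 change of each gene that passed the filter, for the 10 enzymes and 6 lists of related genes, in HeyC2 (blue) and SKOV3 (brown). Points are genes, spread vertically only for legibility, the short black bars are list medians and the dotted lines mark 1.5-fold. The S-phase list had a median of -1.3 in SKOV3, the furthest from 0 of the medians drawn, and of 0.12 in HeyC2.

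Genes whose pattern came nearest to that of TET1 and of UHRF1 were named by the distance over 3 relative log2 values, namely the change in HeyC2, the change in SKOV3 and the difference between the controls. For TET1, among 11134 genes, these were HAPLN3 (distance 0.23), NHS (0.31), ERV3-1 (0.32), CSAD (0.32) and TXNIP (0.35). HAPLN3, for instance, had 1.07, 1.73 and 0.34 for the 3 values, against 0.98, 1.63 and 0.52 for TET1. TET1 itself did not pass the filter in HeyC2 or between the controls. Its counting intervals there, 0.37 to 2.33 and -0.14 to 1.86, taken without the added 0.1 FPKM, are wide beside these distances. Which genes lie nearest to TET1 is therefore not resolved. For UHRF1, among 11133 genes, they were MRTO4 (0.17), TIMM10 (0.19), AREG (0.21), CENPQ (0.23) and MASTL (0.23). In the same order, their values in SKOV3 were -1.65, -1.61, -1.51, -1.42 and -1.7. The counting intervals of UHRF1, -0.01 to 0.43, -1.81 to -1.48 and 1.36 to 1.73, are each wider than its distances to these genes. Which genes lie nearest to UHRF1 is therefore not resolved either. The 3 values rest on 4 libraries, so nearness of pattern is a description only.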

How the data were processed

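RNA-seq of 4 libraries (HeyC2 and SKOV3, empty plasmid or TET1) was used, 1 per group, as labelled. The deposited FPKM were made by the authors from paired-end TruSeq libraries aligned to hg19 with Bowtie2 2.2.6 and quantified with RSEM 1.2.17. The annotation is not given in the sources used here. The scaling of the TET1 columns to GAPDH was found from the values: 100% of the distinct values below 40 FPKM (1220 and 2637) lay within 0.005 FPKM of multiples of 0.01 times 3.2344 (HeyC2) or 1.3456 (SKOV3). Columns were divided by these. Adding a pseudocount to scaled values would shrink low genes such as TET1 unequally.

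Depth was estimated where values of genes with 1 transcript came nearest to whole fragments (mean distance 0.153 to 0.171, against 0.25 if unrelated). Member fragments followed from it and the GENCODE canonical length on GRCh37, the build of hg19, with exact Poisson intervals for levels and exact binomial (Clopper-Pearson) intervals for ratios, at 95%. They treat these estimates as known. On simulated tables, 200 of 200 genes planted at 3-fold were recovered among 11639 genes (HeyC2) and 12227 (SKOV3). The planted genes were all well expressed in the control, and recovery was counted at 1.5-fold. This checks the steps of the computation only and does not cover genes at low levels such as TET1.

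The genes and lists were chosen with earlier results of these data known. Named from each list were up to 2 highest and 2 lowest genes past 1.5-fold per line, and some genes are not reported here. Alternatives were other pseudocounts, filters, scalings, centres and thresholds. Work used Python 3.11.15, numpy 2.4.6, pandas 2.3.3, scipy 1.17.1 and matplotlib 3.10.9.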

Additional observations from a re-analysis of the deposited data

Results flagged for a closer look

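DNMT3B lay below the all-gene median in HeyC2, with a relative log2 change of -1.05, and above it in SKOV3, with 2.3, and the counting interval of each is clear of 0. TDG did the opposite, with 0.45 in HeyC2 and -0.6 in SKOV3, again with both intervals clear of 0. With 1 library per group, the difference between the lines was not tested for either gene. Among genes tested in both lines, 1.26% had a larger gap between the lines than DNMT3B and 20.9% a larger gap than TDG.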

How the results depend on the processing

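No paired analysis was possible because, within each line, each group held 1 library, and for the same reason no library could be left out. A fit over both lines, taking them as replicates, was not run. No gene past 1.5-fold changed sign. Values nearer to the median did, namely TET1 between controls with a pseudocount of 1 (-0.01), TET3 in HeyC2 with no filter (-0.01) or as deposited (-0.02), and, with upper-quartile scaling, MBD4 in SKOV3 (0.02) and TET2 (0.1) and APEX1 (0.06) between controls. Of 230 recomputed values of single enzyme genes, 222 stayed within the counting interval of the reported value. The other 8 were TET1 with a pseudocount of 1 (0.28 in HeyC2 and 0.78 in SKOV3), DNMT1 in SKOV3 with a filter at 5 FPKM (-1.16), and, with upper-quartile scaling, DNMT1 (-1.07), UHRF1 (-1.44) and APEX1 (-0.28) in SKOV3 and DNMT1 (1.6) and again APEX1 between controls. This agreement was in part fixed by the computation. Apart from upper-quartile scaling and the trimmed mean, each setting was centred again on the all-gene median. That nearly cancels a constant factor on a column, as in the values as deposited. Other filters and the trimmed mean shift all genes of a comparison by the same amount. TDG in SKOV3 ranged from -0.69 to -0.4. In HeyC2, 1 enzyme past 1.5-fold became 2 with no filter, as TET1 entered, 0 with a filter at 5 FPKM, as DNMT3B fell below it, and 5 at 1.2-fold. Between the controls, 4 became 7 at 1.2-fold. Among all genes in HeyC2, 3192 became 6029 with no filter, 1837 with a filter at 5 FPKM, 1255 at 2-fold and 6962 at 1.2-fold, and in SKOV3 5823 became 9240, 3618, 2917 and 9403. Of the SKOV3 calls, 54.6% were higher, 70.2% with upper-quartile scaling and 50.5% centred on a trimmed mean. Depth limits TET1 most.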

Other observations

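MTAP, which recycles the by-product of polyamine synthesis into the methionine pool, was listed at 0 in both HeyC2 libraries and at 7.0 and 7.39 FPKM in the SKOV3 control and TET1 libraries. Around DNMT3A in SKOV3, 9 of 33 other genes tested within 2 Mb were higher by 1.5-fold and 2 lower, with a median of 0.16, beside 0.95 for DNMT3A itself. Around TET1 in SKOV3, 6 of 25 such genes were higher and 3 lower, with a median of 0.14, beside 1.63 for TET1. Of all genes tested in SKOV3, 24.4% were higher and 20.3% lower.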
